A study of Mus musculus with 9 samples.

Results

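The genes described here are 40 genes of protein folding in the endoplasmic reticulum (ER) and of the unfolded protein response, chosen by gene symbol. All 40 were present among the 19517 genes of the authors' deposited table of comparisons. They were proposed with results of these data in view, since 5 of them (Creld2, Sdf2l1, Manf, Pdia4 and Pdia6) had all been called higher by the authors' adjusted p in the same comparison. The values of that comparison, CAU against UT, are therefore given as a description. Of the 5, Pdia4 was also called in CTX against UT.

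The study measured gene expression by RNA-seq in ovaries of nude mice (female BALB/c, athymic and so short of T cells) bearing tumors grown from MDA-MB-231, a human breast cancer line. Every group carried the xenograft. Of the 3 groups of 3 libraries, UT was untreated, CTX received cyclophosphamide, a DNA-alkylating chemotherapy drug, and CAU is labelled with caulerpin, an algal indole alkaloid, and with no other agent. The labels give neither doses, times nor ages, and whether CAU mice also received cyclophosphamide is not stated in them. No value per library was used here, so the overlap between libraries and the depth behind each gene are unknown, and the precision of each log2 fold change is given as the standard error (SE) that its p-value implies. The labels do not say that libraries came from separate mice, and p-values measure only their spread, which may be partly technical. Comparisons are read here as the later-named group over the earlier one, an order that the column names do not give, and with the other reading all signs turn.

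The ER folds proteins that enter the secretory pathway. When unfolded protein builds up in it, 3 sensors in its membrane respond. ATF6 is cut to release a transcription factor, IRE1 (gene Ern1) splices the messenger of XBP1, and PERK (gene Eif2ak3) slows translation and favours that of ATF4. ATF6 and spliced XBP1 raise chaperones, disulfide isomerases and the machinery of ER-associated degradation (ERAD). ATF4 raises genes of amino acid supply and, under lasting stress, DDIT3 (CHOP), which is linked to cell death. In the ovary, granulosa, theca and luteal cells and oocytes all secrete proteins, among them gonadal peptides and the zona pellucida. The members fall into 16 genes of folding and oxidation, 7 of translocation into the ER and signal peptide removal, 8 of ERAD, 4 that encode the sensors and XBP1, and 5 of the ATF4 and DDIT3 arm.

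The ER stress response element (ERSE), through which ATF6 acts, was in some of the folding promoters. It was searched as CCAAT, then 9 unspecified bases, then CCACG, on both strands of the 300 bases from 250 before to 50 after each RefSeq gene start (build GRCm38.p6). RefSeq promoters matched 33 of the 40 members. Of these 33 genes, 10 (30.3%) held the element, against 37 of 27025 genes (0.137%) in the whole promoter table. They were 8 of the 14 folding genes with a promoter and 2 of the 7 ERAD genes, while none of the 4 translocation, 3 sensor and 5 ATF4 arm promoters held these letters. Since the members were picked as known genes of this response, some of them known through this element, the count describes the choice and is no independent result. The matches are printed below to show the element in each promoter that holds it. Capitals mark the fixed letters, and each match is written along the strand on which it reads CCAAT to CCACG.
Creld2: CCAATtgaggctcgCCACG
Pdia6: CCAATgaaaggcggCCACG
Hspa5: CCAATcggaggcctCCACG
Hsp90b1, upstream match: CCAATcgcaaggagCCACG
Hsp90b1, downstream match: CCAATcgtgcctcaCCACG
Dnajc3: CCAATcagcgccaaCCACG
Calr: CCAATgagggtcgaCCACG
Canx: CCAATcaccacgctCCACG
Ero1b: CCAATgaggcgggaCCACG
Syvn1: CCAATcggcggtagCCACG
Derl3: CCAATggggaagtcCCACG

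The 9 spacer letters differed from gene to gene. All 11 matches lay before the gene start, from the Syvn1 match at -44 to -26 up to the Hsp90b1 match at -212 to -194. Those of Creld2, Calr, Ero1b and Derl3 and the downstream match of Hsp90b1 were on the strand opposite to the gene. With the closing CCACG relaxed to CCNNG, an overlapping search, 36.4% of member genes and 1.55% of all genes had a match. A shorter form, ERSE-II (ATTGG, any base, then CCACG), was in Herpud1 and Dnajb11 and in 0.0444% of all genes. An element bound by spliced XBP1, searched as TGACGTGG, was in none of the 33 genes and in 0.714% of all genes. Other sequences that XBP1 may bind were not told apart by these searches. The C/EBP-ATF element that ATF4 binds was searched as TGATGNAAT, which was in none of the 33 genes and in 1.08% of all genes. With its last letter left off (TGATGNAA), a search added after the sequences were seen, it was in Chac1, Trib3 and Asns of the ATF4 arm, in Herpud1, and in 4.51% of all genes.

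**Figure D1:**
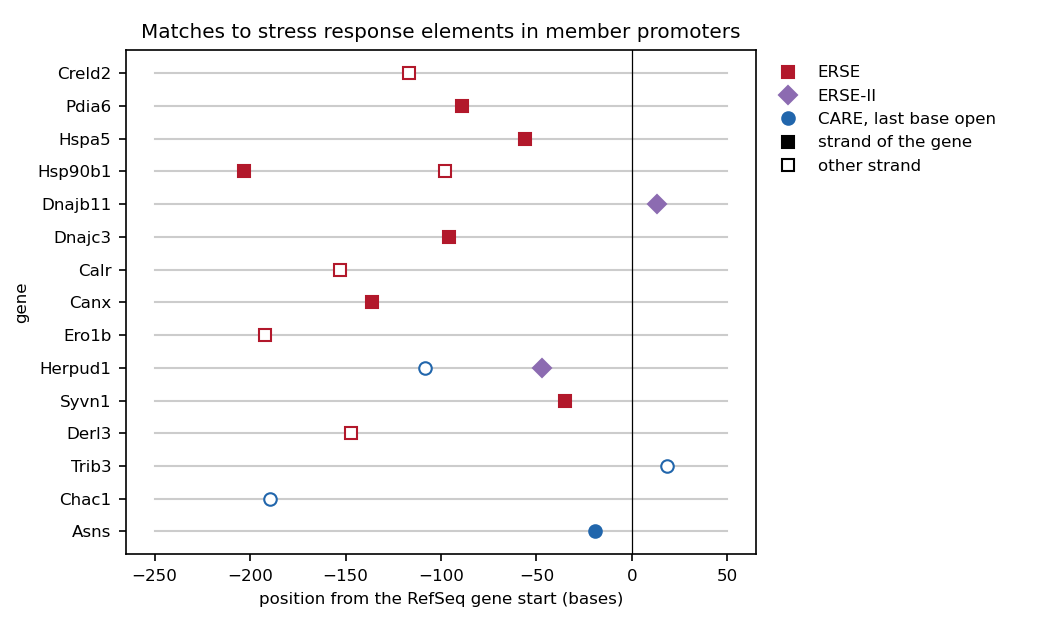
Positions of element matches in member promoters, in bases from the RefSeq gene start (x axis), with 1 line per gene that has a match to ERSE, ERSE-II or the C/EBP-ATF element with its last letter left off (CARE). Filled marks are on the strand of the gene and open marks on the other strand. The ERSE matches lie between -212 and -26, all before the gene start.

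The promoters of Creld2, Sdf2l1, Pdia4 and Pdia6, which are among the 5 members that prompted the list, are shown whole beside that of Hspa5, the main ER chaperone, and those of Ddit3 and Asns of the ATF4 arm. Capitals mark the fixed letters of ERSE and of TGATGNAA on either strand. The windows lie at chr15:88819396-88819695 on the plus strand for Creld2, chr16:17132334-17132633 on the minus strand for Sdf2l1 and chr6:47813463-47813762 on the minus strand for Pdia4. Those of Pdia6, Hspa5 and Ddit3 lie on the plus strand at chr12:17266339-17266638, chr2:34771840-34772139 and chr10:127290543-127290842, and that of Asns on the minus strand at chr6:7693160-7693459. In GENCODE M21, on the same build, each window overlaps its own gene, except that of Pdia4, which overlaps no annotated gene. The Ddit3 window also overlaps Gm4189, a processed transcript on the other strand.
Creld2: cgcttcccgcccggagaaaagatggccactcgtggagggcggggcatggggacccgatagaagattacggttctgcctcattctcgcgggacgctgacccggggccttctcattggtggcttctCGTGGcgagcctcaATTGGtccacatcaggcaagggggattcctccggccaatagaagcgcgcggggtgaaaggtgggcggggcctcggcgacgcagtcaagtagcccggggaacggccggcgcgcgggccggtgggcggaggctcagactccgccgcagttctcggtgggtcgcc
Sdf2l1: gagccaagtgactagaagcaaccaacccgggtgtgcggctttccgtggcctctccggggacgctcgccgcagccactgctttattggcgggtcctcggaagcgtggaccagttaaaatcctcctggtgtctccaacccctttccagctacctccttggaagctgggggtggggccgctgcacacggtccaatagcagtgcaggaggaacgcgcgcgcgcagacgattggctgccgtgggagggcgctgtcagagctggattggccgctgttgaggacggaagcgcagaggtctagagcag
Pdia4: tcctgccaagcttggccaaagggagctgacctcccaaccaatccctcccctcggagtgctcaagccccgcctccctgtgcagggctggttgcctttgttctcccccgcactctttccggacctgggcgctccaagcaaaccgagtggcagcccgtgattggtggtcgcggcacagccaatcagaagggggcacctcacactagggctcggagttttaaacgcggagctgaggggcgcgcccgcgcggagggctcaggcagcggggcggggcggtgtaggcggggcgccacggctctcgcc
Pdia6: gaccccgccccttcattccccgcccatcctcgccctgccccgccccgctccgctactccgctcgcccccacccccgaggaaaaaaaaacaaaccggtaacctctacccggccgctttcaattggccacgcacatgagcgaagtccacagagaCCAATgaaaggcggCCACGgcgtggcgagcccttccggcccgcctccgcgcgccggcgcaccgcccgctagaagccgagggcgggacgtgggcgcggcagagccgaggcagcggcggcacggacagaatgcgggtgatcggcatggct
Hspa5: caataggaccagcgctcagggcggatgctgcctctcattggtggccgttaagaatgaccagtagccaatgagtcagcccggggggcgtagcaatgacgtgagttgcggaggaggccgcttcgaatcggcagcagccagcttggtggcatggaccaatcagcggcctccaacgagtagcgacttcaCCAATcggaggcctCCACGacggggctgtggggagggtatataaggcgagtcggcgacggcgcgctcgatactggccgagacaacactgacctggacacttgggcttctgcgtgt
Ddit3: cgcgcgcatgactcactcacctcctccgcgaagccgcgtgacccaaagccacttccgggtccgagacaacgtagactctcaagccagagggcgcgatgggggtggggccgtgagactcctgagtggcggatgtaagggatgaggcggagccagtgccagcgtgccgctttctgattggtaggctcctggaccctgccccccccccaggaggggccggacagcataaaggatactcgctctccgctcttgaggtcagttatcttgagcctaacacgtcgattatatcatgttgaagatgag
Asns: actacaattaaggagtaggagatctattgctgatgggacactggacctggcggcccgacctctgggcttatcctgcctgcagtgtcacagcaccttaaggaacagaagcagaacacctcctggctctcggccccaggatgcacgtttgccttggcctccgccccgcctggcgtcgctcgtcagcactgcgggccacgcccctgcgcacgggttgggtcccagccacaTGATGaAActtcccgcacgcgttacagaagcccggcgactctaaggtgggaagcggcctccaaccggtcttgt

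Across the whole list, the 3 comparisons gave few calls and mostly positive values. Between CTX and UT, 1 of the 40 members passed an adjusted p of 0.05 in the authors' deposited table, where 1.29% of 19260 genes did. At an unadjusted p of 0.05, 18 members (45%) were higher and none lower, where 4.42% of all genes and 7.34% of the 10599 genes with an SE of at most 0.25 were higher. Between CAU and CTX, none of the 40 passed the adjusted threshold (DESeq2, as deposited), where 0.442% of genes did. At the unadjusted threshold 12 members (30%) were higher and none lower, against 3.32% of all genes and 1.91% of the genes with such an SE. Between CAU and UT, the comparison that prompted the list, 5 members were called, where 0.0518% of genes were, and 21 were higher at the unadjusted threshold, where 1.2% were. CTX against UT shares the UT libraries, and CAU against CTX the CAU libraries, with the comparison that prompted the list. The 3 sets of values are therefore not independent of it. Without the 5 genes that prompted the list, 35 members remain, and none of them was called in any comparison. At the unadjusted threshold 13 (37.1%) of these were higher in CTX against UT, 8 (22.9%) in CAU against CTX and 16 (45.7%) in CAU against UT.

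**Figure D2:**
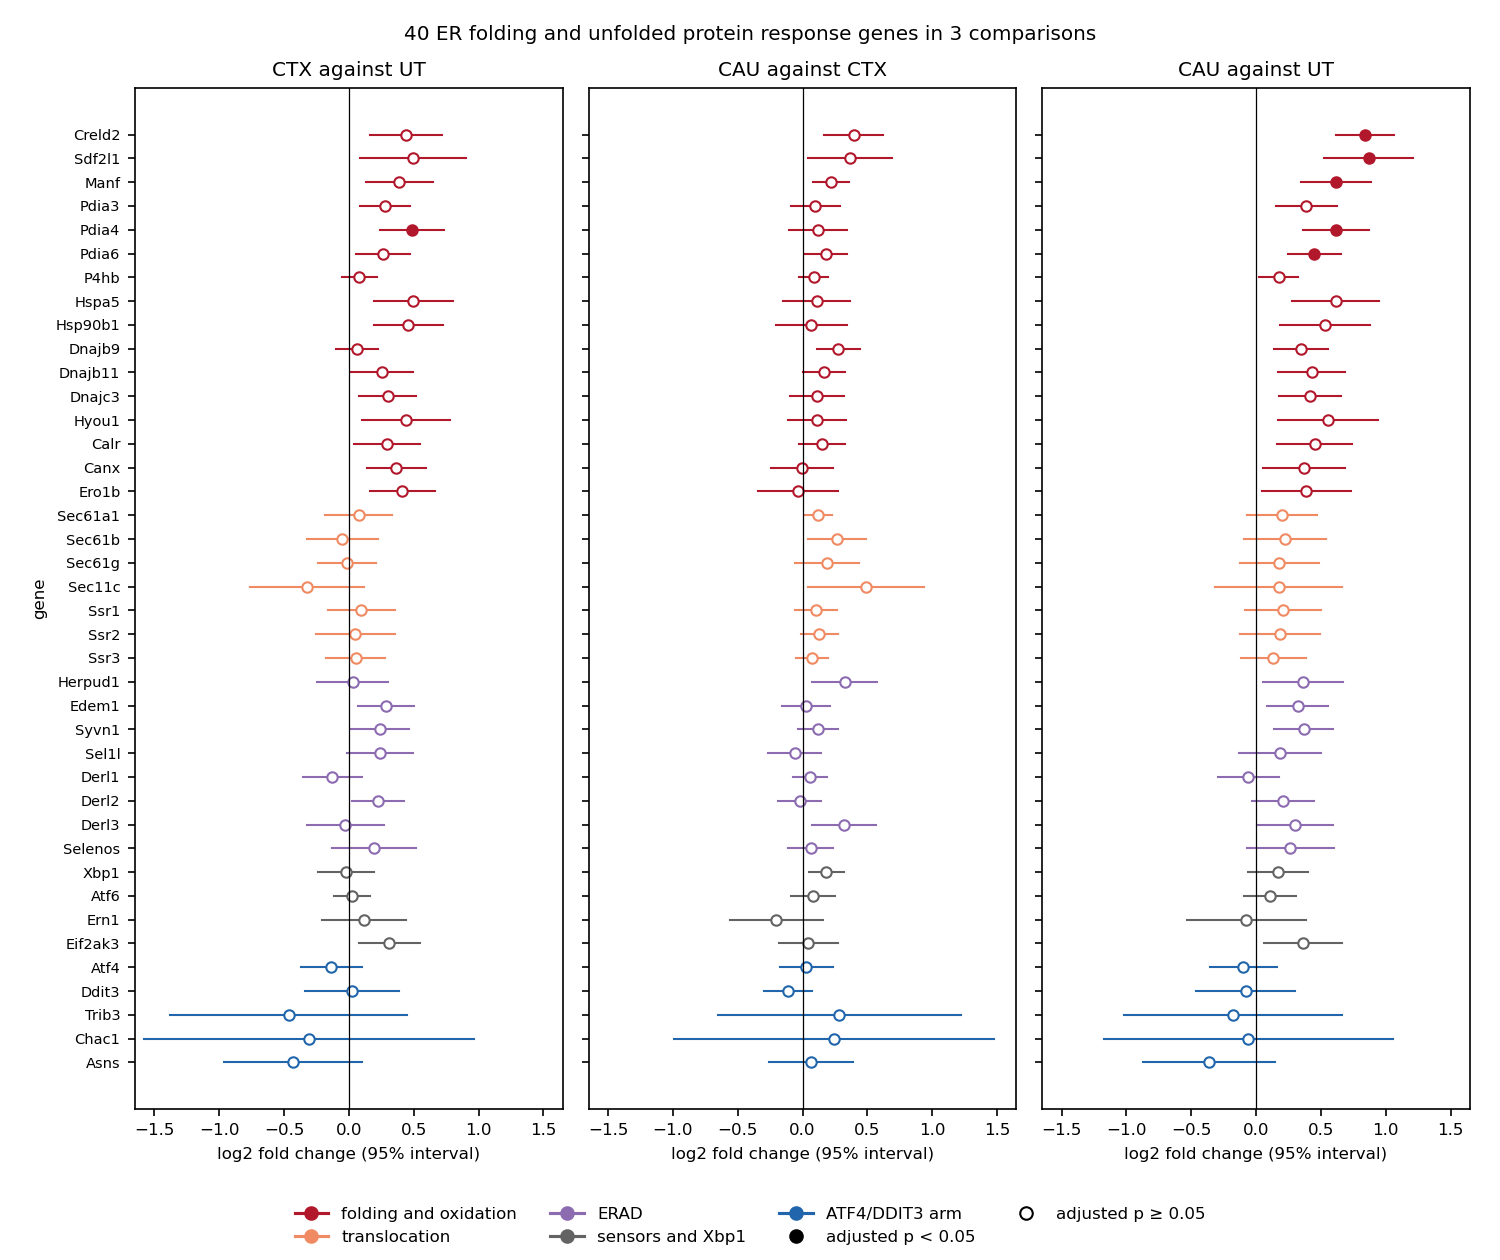
Log2 fold change of each member (x axis) in the 3 comparisons, as deposited, with the 95% interval from its implied SE. Colours give the role, and filled points have an adjusted p under 0.05, which are Pdia4 in CTX against UT and Creld2, Sdf2l1, Manf, Pdia4 and Pdia6 in CAU against UT.

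The folding genes were above 0 together in CTX ovaries. All 16 had positive log2 fold changes in CTX against UT, with a median of 0.38 where the median of all genes was -0.03. Of the 16, 14 had an unadjusted p under 0.05, where 4.42% of all genes were higher at that p. Without the 5 genes that prompted the list, 9 of 11 folding genes had such a p, and their median was 0.297. Pdia4, a disulfide isomerase of the ER, was the member that rose, by 1.4-fold (log2 fold change 0.49, SE 0.13, DESeq2 adjusted p = 0.0146 in the authors' deposited table). It is 1 of the 5 genes that prompted the list for their values against the same UT libraries, so its call is no independent result. Without those 5 genes no member passed in this comparison. Pdia4 missed a threshold of 0.01, and after setting the median of all genes to 0 Hsp90b1, Canx and Ero1b passed 0.05 as well. In bulk tissue, more RNA per cell and more cells of a kind that make it cannot be told apart.

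The major chaperones had values near that of Pdia4 without passing. Hspa5 (BiP), the chaperone that holds the sensors inactive, was at 0.50 (SE 0.16, DESeq2 adjusted p = 0.0804) by the authors' deposited table. The same source, the authors' deposited table, has Hsp90b1, the ER paralog of HSP90, at 0.46 (SE 0.14, DESeq2 adjusted p = 0.0546). Both intervals lay above 0, from 0.19 to 0.80 for Hspa5 and from 0.19 to 0.72 for Hsp90b1. Hyou1, a large chaperone that recharges Hspa5, was at 0.44 (SE 0.17) by the authors' deposited table. These 3 chaperones were thus at 1.36-fold to 1.41-fold of UT.

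Genes of other folding steps had values of the same order. The authors' deposited table gives 0.44 (SE 0.14) for Creld2, an ER stress-inducible secreted and ER-resident protein, 0.49 (SE 0.21) for Sdf2l1, a partner of the co-chaperone Dnajb11, and 0.39 (SE 0.13) for Manf, a secreted ER protein that binds Hspa5. The lectin chaperones calnexin and calreticulin, which hold glycoproteins, were at 0.36 (Canx, SE 0.12) and 0.30 (Calr, SE 0.13) by the authors' deposited table. Ero1b, the oxidase that recharges disulfide isomerases, was at 0.41 (SE 0.13) by the authors' deposited table. These values overlapped within their SEs, and none of the 6 genes passed.

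Other disulfide isomerases and the Hspa5 co-chaperones were also above 0. Pdia3, which works with calnexin and calreticulin, was at 0.28 (SE 0.10), Pdia6 at 0.26 (SE 0.11), Dnajc3 at 0.30 (SE 0.11) and Dnajb11 at 0.26 (SE 0.12) by the authors' deposited table. The 2 folding members with the smallest values in the authors' deposited table were P4hb, protein disulfide isomerase itself and the beta subunit of collagen prolyl hydroxylase, at 0.08 (SE 0.07), and Dnajb9, a co-chaperone and a target of XBP1, at 0.06 (SE 0.08). The intervals of these 2 reached up to 0.22 each.

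Between CAU and CTX, 14 of the 16 folding genes were above 0 by smaller amounts, with a median of 0.11 where that of all genes was 0.004. Among the folding genes, the largest values in the authors' deposited table were 0.39 for Creld2 (SE 0.12, DESeq2 adjusted p = 0.110), 0.37 for Sdf2l1 (SE 0.17), 0.28 for Dnajb9 (SE 0.08, DESeq2 adjusted p = 0.131) and 0.22 for Manf (SE 0.07, DESeq2 adjusted p = 0.233). None of these passed. Creld2, Sdf2l1 and Manf, and Pdia6 after them, are among the 5 genes that prompted the list for their values in the same CAU libraries. Without those 5 genes, 2 of 11 folding genes were higher at an unadjusted p of 0.05, against 6 of 16 with them. Over all genes 3.32% were higher at that p. The authors' deposited table puts Pdia6 at 0.18 (SE 0.08) and Dnajb11 at 0.17 (SE 0.08). The remaining folding genes in the authors' deposited table lay between -0.03 for Ero1b and 0.15 for Calr, and 2 of them, Ero1b and Canx (-0.0048), were below 0.

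For the main chaperones the interval of the CAU and CTX difference was wide on both sides of 0. It ran from -0.15 to 0.37 for Hspa5 around 0.11, from -0.21 to 0.34 for Hsp90b1 around 0.07 and from -0.10 to 0.34 for Pdia4 around 0.12 in the authors' deposited table. The CTX against UT values of the same genes (0.50, 0.46 and 0.49) lay outside these intervals. Their own intervals, from 0.19 to 0.80, 0.19 to 0.72 and 0.24 to 0.74, overlapped those of CAU against CTX. Both comparisons use the CTX libraries, and the sizes of their differences were not tested against each other. For Creld2 the values in the authors' deposited table were close, 0.44 in CTX against UT and 0.39 in CAU against CTX.

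In CAU against UT all 16 folding genes were above 0, with a median of 0.45 where that of all genes was -0.01. This comparison prompted the list, so its values are described without a test. In the authors' deposited table the log2 fold changes were 0.87 for Sdf2l1, 0.84 for Creld2, 0.61 for each of Manf, Pdia4 and Hspa5, 0.56 for Hyou1 and 0.53 for Hsp90b1. The members nearest the threshold were Pdia6 on the inside (0.45, SE 0.10, DESeq2 adjusted p = 0.0278 by the authors' deposited table) and Hspa5 on the outside (SE 0.17, DESeq2 adjusted p = 0.216). The Pdia6 call was lost after centring on genes of SE up to 0.25, an alternative added after the data were seen. Hspa5 thus had the larger value and the larger SE. The authors' deposited table has the other folding genes at 0.45 (Calr), 0.43 (Dnajb11), 0.42 (Dnajc3), 0.39 (Pdia3 and Ero1b), 0.37 (Canx), 0.35 (Dnajb9) and 0.17 (P4hb). Without the 5 genes that prompted the list, the median of the other 11 was 0.42, from 0.17 to 0.61.

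**Figure D3:**
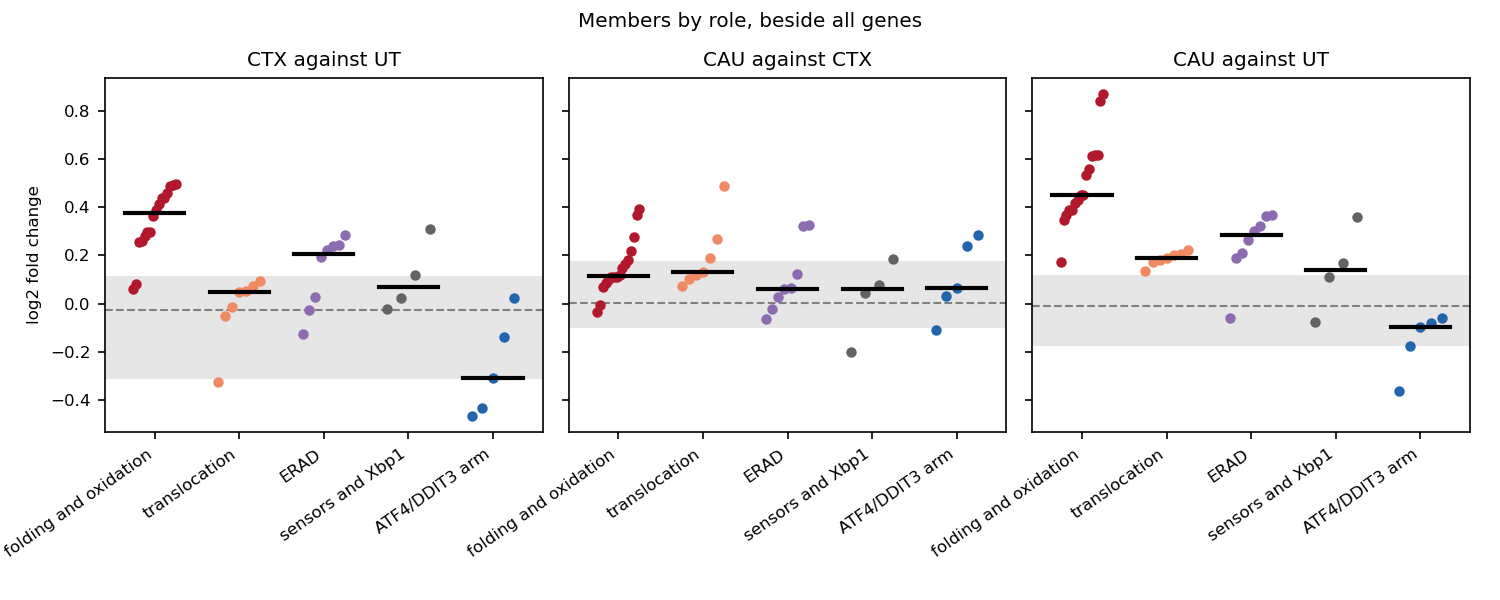
Log2 fold change as deposited (y axis) of each member by role, in the 3 comparisons, with the median of each role as a black bar. The grey band holds the middle 50% of all genes and the dashed line their median. In CTX against UT and in CAU against UT the folding genes lie above 0 and most of the ATF4 and DDIT3 arm below it, and in CAU against CTX the roles overlap.

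The 7 translocation genes had a median near 0 in CTX against UT, and Sec11c had the highest value of all 40 members in CAU against CTX. Sec61a1, Sec61b and Sec61g encode the protein-conducting channel, Ssr1, Ssr2 and Ssr3 the translocon-associated protein complex, and Sec11c a catalytic subunit of signal peptidase. In CTX against UT their median was 0.05 over values in the authors' deposited table from -0.32 for Sec11c to 0.10 for Ssr1, and none had an unadjusted p under 0.05. All 7 were above 0 in CAU against CTX (median 0.13), and in CAU against UT (median 0.19, from 0.13 for Ssr3 to 0.22 for Sec61b). In CAU against CTX, the authors' deposited table gives 0.49 (SE 0.23) for Sec11c, 0.27 (SE 0.12) for Sec61b and 0.12 (SE 0.06) for Sec61a1, none past the adjusted threshold. Sec61g was at 0.19, Ssr2 at 0.13, Ssr1 at 0.10 and Ssr3 at 0.07 in that comparison of the authors' deposited table. The channel and its partners were thus closer to 0 than the chaperones in CTX against UT, while in CAU against CTX their median was as high.

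The 8 ERAD genes had medians between those of the folding and translocation genes in the comparisons with UT, and below both in CAU against CTX. The ERAD medians were 0.21 in CTX against UT, 0.06 in CAU against CTX and 0.28 in CAU against UT, and none passed the adjusted threshold in any. At an unadjusted p of 0.05, 3, 2 and 4 were higher (DESeq2, as deposited), where 4.42%, 3.32% and 1.2% of all genes were. Edem1, which hands misfolded glycoproteins to degradation, Syvn1, the ubiquitin ligase of the pathway, its partner Sel1l and the channel protein Derl2 were at 0.28 (SE 0.11), 0.24 (SE 0.11), 0.24 (SE 0.13) and 0.22 (SE 0.10) in CTX against UT in the authors' deposited table. Selenos, a selenoprotein that recruits the extracting ATPase, was at 0.19 (SE 0.17) by the authors' deposited table. In CAU against CTX these 5 were between -0.06 (Sel1l) and 0.12 (Syvn1).

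Herpud1 and Derl3 had the other arrangement. Herpud1, which assembles the ligase complex, was at 0.03 (SE 0.14) in CTX against UT and 0.32 (SE 0.13) in CAU against CTX in the authors' deposited table. Derl3, a derlin of secretory cells, was at -0.03 (SE 0.15) and 0.32 (SE 0.13) by the authors' deposited table. Dnajb9 and Xbp1 and, among the translocation genes, Sec61b and Sec61g had it too, so that 6 members were within about 0.06 of 0 in CTX against UT and between 0.18 and 0.32 in CAU against CTX. They were singled out after their values were seen, and none passed the adjusted threshold. In CAU against UT, Syvn1 was at 0.37, Herpud1 at 0.36, Edem1 at 0.32, Derl3 at 0.30, Selenos at 0.26, Derl2 at 0.21, Sel1l at 0.19 and Derl1, another derlin, at -0.06 in the authors' deposited table. The authors' deposited table has Derl1 at -0.13 (SE 0.12) in CTX against UT and 0.06 (SE 0.07) in CAU against CTX, the ERAD member with the lowest value in both comparisons with UT.

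Apart from Eif2ak3, the sensor genes and Xbp1 had small values. These are values of total messenger, which shows neither the splicing of Xbp1 nor the cutting of ATF6. Atf6 was at 0.02 (SE 0.07), 0.08 (SE 0.09) and 0.11 (SE 0.10) in CTX against UT, CAU against CTX and CAU against UT in the authors' deposited table. In the same order, the authors' deposited table has Xbp1 at -0.02 (SE 0.11), 0.18 (SE 0.07, unadjusted p = 0.00709 and DESeq2 adjusted p = 0.432) and 0.17 (SE 0.12). The intervals of Atf6 reached at most 0.31, and those of Xbp1 at most 0.40. The authors' deposited table has Ern1 at 0.12 (SE 0.16), -0.20 (SE 0.18) and -0.07 (SE 0.24), with intervals on both sides of 0. Eif2ak3, which encodes PERK, was the sensor with the largest value in both comparisons with UT. In the authors' deposited table it was at 0.31 in CTX (SE 0.12, DESeq2 unadjusted p = 0.00993 and DESeq2 adjusted p = 0.233) and 0.36 in CAU (SE 0.15, DESeq2 unadjusted p = 0.018). It did not pass, and the authors' deposited table has it at 0.04 (SE 0.12) in CAU against CTX.

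The ATF4 and DDIT3 arm lay mostly below 0 in the comparisons with UT and mostly above 0 in CAU against CTX. None of its 5 members passed in any comparison, and none had an unadjusted p under 0.05 (DESeq2, as deposited). In CTX against UT 4 of the 5 were below 0 (median -0.31), and in CAU against UT all 5 were (median -0.10), while in CAU against CTX 4 of the 5 were above 0 (median 0.06). Atf4, the transcription factor of the arm, was at -0.14 (SE 0.12) in CTX against UT and -0.10 (SE 0.13) in CAU against UT in the authors' deposited table. Its intervals ended at 0.10 and 0.16. ATF4 is controlled largely at translation, which messenger levels do not show.

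ATF4 acts through target genes, which include Ddit3, Trib3, Chac1 and Asns. Ddit3 was at 0.02 (SE 0.19), -0.11 (SE 0.09) and -0.08 (SE 0.20) in CTX against UT, CAU against CTX and CAU against UT in the authors' deposited table. The authors' deposited table has Asns, asparagine synthetase, at -0.43 (SE 0.27), 0.06 (SE 0.17) and -0.36 (SE 0.26). In the comparisons with UT the interval of Asns ended at 0.10 and 0.15 and that of Ddit3 at 0.39 and 0.30, all 4 intervals holding 0. Trib3, a pseudokinase that restrains ATF4, and Chac1, a glutathione-degrading enzyme, were measured too imprecisely to place. Trib3 was at -0.46 (SE 0.47), 0.28 (SE 0.48) and -0.17 (SE 0.43), and Chac1 at -0.31 (SE 0.65), 0.24 (SE 0.63) and -0.06 (SE 0.57), by the authors' deposited table. For both, each interval holds values on either side of 0.

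Set side by side, the median of the folding arm was above that of the ATF4 and DDIT3 arm by 0.68 in CTX against UT, 0.05 in CAU against CTX and 0.55 in CAU against UT. In CTX against UT and in CAU against UT no value of the 2 arms overlapped, with the lowest folding gene at 0.06 and 0.17 and the highest ATF4 arm gene at 0.02 and -0.06. In CAU against CTX they did, from -0.03 among the folding genes to 0.28 in the ATF4 arm. These are point values, and the intervals of the genes at the edge overlapped. In CTX against UT they ran from -0.10 to 0.22 for Dnajb9 and from -0.34 to 0.39 for Ddit3. In CAU against UT they ran from 0.03 to 0.32 for P4hb and from -1.18 to 1.06 for Chac1. Every interval of the ATF4 arm held 0 in both comparisons with UT. The members were chosen with results known, so the difference between the arms has no p. The ATF4 arm is 5 genes with a median SE of 0.27 in CTX against UT, against 0.13 for the folding genes. Its median there is the value of Chac1 (-0.31, SE 0.65), a gene measured too imprecisely to place. The others were Atf4 at -0.14 (SE 0.12), Ddit3 at 0.02 (SE 0.19), Asns at -0.43 (SE 0.27) and Trib3 at -0.46 (SE 0.47). The size of the difference in CTX against UT therefore rests on an imprecise gene. With 35 other ATF4 targets added, its median in CTX against UT was 0.01 and the difference 0.36.

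The other lists of the pathway had medians nearer to 0 than the folding members. Of 26 other ER folding enzymes none passed in any comparison, with medians of 0.11 in CTX against UT, 0.03 in CAU against CTX and 0.17 in CAU against UT. The 2 of these with the smallest SE in CTX against UT were Dnajc10, a reductase co-chaperone, at 0.16 (SE 0.06), and Tmx3, a membrane-bound isomerase, at 0.10 (SE 0.08) by the authors' deposited table. Of 24 other subunits of the translocon, signal peptidase and oligosaccharyltransferase, which attaches glycans, none passed, and 21, 21 and 24 were above 0 (medians 0.12, 0.06 and 0.19). Sec62 and Sec63, translocon partners and the most precise of them in CTX against UT, were at 0.04 (SE 0.06) and -0.0066 (SE 0.06) by the authors' deposited table. These medians were below those of the folding members in each comparison.

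Further lists covered later steps of degradation and secretion. The 19 other ERAD genes had medians of 0.04, -0.01 and 0.03 with none called, and Os9, a lectin that reads glycans of misfolded proteins and is among the most precise of them in CTX against UT, was at -0.07 (SE 0.07) by the authors' deposited table. The 19 genes of transport from ER to Golgi had medians of 0.05, 0.05 and 0.18 with none called, and all 19 were above 0 in CAU against UT. Tmed10 and Kdelr1 were the most precise of them, at 0.02 (SE 0.06) and 0.0045 (SE 0.06) in CTX against UT in the authors' deposited table. By unadjusted p under 0.05 in CTX against UT, CAU against CTX and CAU against UT, 5, 3 and 3 of the folding enzymes, 6, 2 and 4 of the translocon list, 1, 1 and 1 of the ERAD list and 2, 1 and 3 of the transport list were higher, and none was lower. Over all genes 4.42%, 3.32% and 1.2% were higher, and the ERAD list's 5.26% in CTX against UT is near that share.

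Calls outside the members came from factors and from ATF4 targets. Over all genes, 1.29% were called in CTX against UT and 0.442% in CAU against CTX. Of 20 other sensors, proteases and ER stress factors, 2 rose in CTX against UT. Creb3l2, an ATF6-like factor cut from the ER membrane, was at 0.42 (SE 0.11, DESeq2 adjusted p = 0.0190) and Tnfrsf10b, a death receptor that both CHOP and p53 can induce, at 0.44 (SE 0.12, DESeq2 adjusted p = 0.0316) by the authors' deposited table. In CAU against CTX the authors' deposited table has them at -0.10 (SE 0.12) and -0.43 (SE 0.13, DESeq2 adjusted p = 0.163), and neither passed. Of 35 other ATF4 targets, Sesn2 rose in CTX against UT and fell in CAU against CTX. Sesn2, a stress-induced inhibitor of growth signalling that p53 also induces, was at 0.65 (SE 0.17, DESeq2 adjusted p = 0.0146) and -0.69 (SE 0.15, DESeq2 adjusted p = 0.00238) by the authors' deposited table, and at -0.03 (SE 0.21) in CAU against UT. It was the 1 call in this list, whose medians were 0.04, 0.04 and 0.02.

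**Figure D4:**
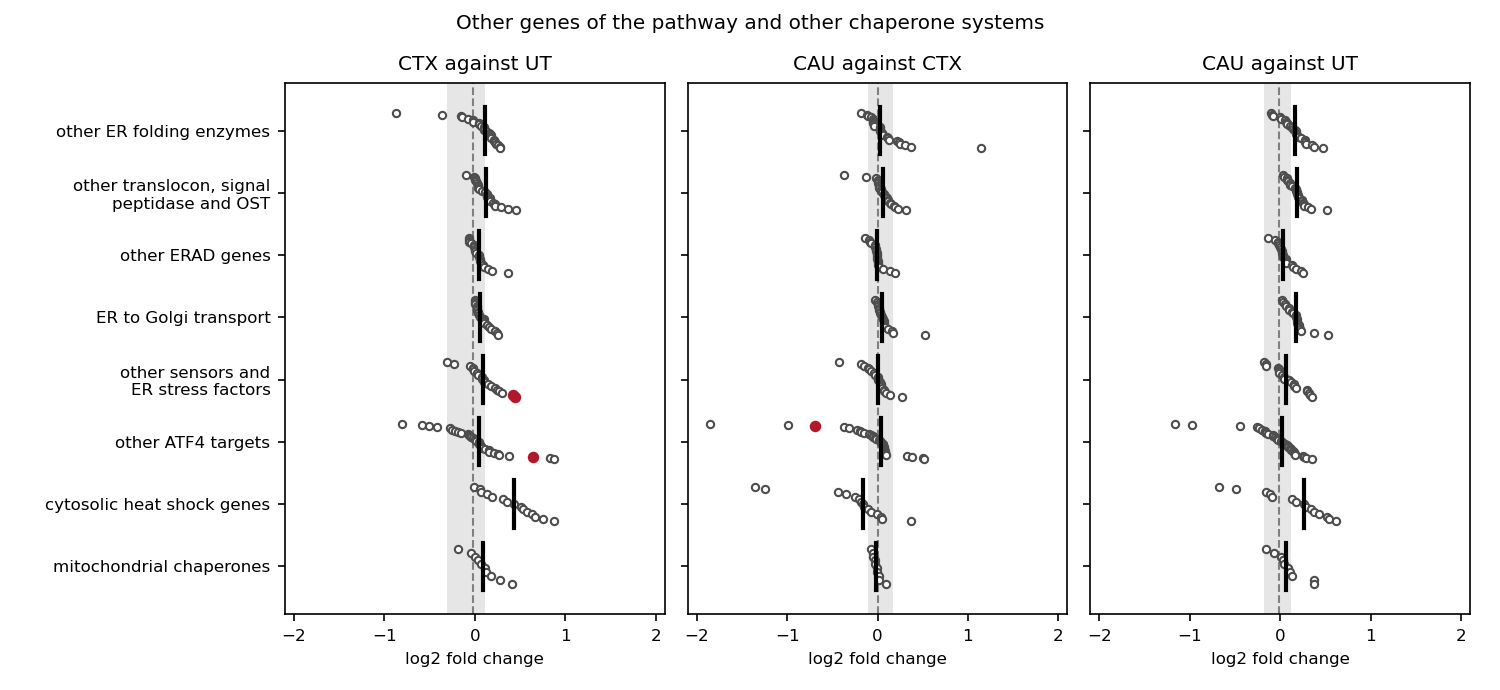
Log2 fold change as deposited (x axis) of the genes of 8 further lists in the 3 comparisons, 1 point per gene, with list medians as black bars and, in red, genes with an adjusted p under 0.05. The grey band holds the middle 50% of all genes and the dashed line their median. The red points are Creb3l2, Tnfrsf10b and Sesn2 in CTX against UT and Sesn2 in CAU against CTX.

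Markers of the cell types an ovary holds moved in the same comparisons. The 10 granulosa markers were all above 0 in CTX against UT (3 rose, median 0.52) and in CAU against UT (median 0.35), and 7 of 10 were below 0 in CAU against CTX (median -0.16). Inhbb, the inhibin and activin beta-B subunit, was at 1.00 (SE 0.21, DESeq2 adjusted p = 0.000378) and -0.47 (SE 0.09, DESeq2 adjusted p = 0.000565) in CTX against UT and CAU against CTX in the authors' deposited table. The 12 macrophage markers were all below 0 in CTX against UT (6 fell, median -0.96), with a median of -0.50 in CAU against UT, and 11 of 12 were above 0 in CAU against CTX (median 0.41), where C1qb and C1qc rose. The 14 surface and oviduct epithelium markers had a median of -1.46 in CTX against UT (2 fell), 1.13 in CAU against CTX (none called) and -0.10 in CAU against UT. They were measured imprecisely, with median SEs of 0.831, 0.677 and 0.965 in that order, where the macrophage markers had 0.235 in CTX against UT. The median SE in CTX against UT was also large for the plasma and B cell markers (0.883) and the luteal and theca markers (0.667) given below. Over all genes, 1.29% were called in CTX against UT and 0.442% in CAU against CTX. The medians of 10 fibroblast markers were 0.01, -0.11 and -0.03, those of 10 oocyte markers 0.12, -0.12 and 0.03, those of 10 luteal and theca markers -0.24, 0.12 and 0.12, and those of 10 plasma and B cell markers -0.55, 0.11 and -0.19. The part of these cell types in the values of the members was not tested. The table gives no levels, so which markers are at 0 in a group, and the tissue label itself, could not be checked beyond the 10 granulosa and 10 oocyte markers all having been tested.

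Precision differed between the comparisons. The implied SE was smallest in CAU against CTX for 29 of the 40 members (72.5%), as for 57.8% of 18773 genes with all 3 comparisons. The median SE over members was 0.13 in CTX against UT, 0.10 in CAU against CTX and 0.15 in CAU against UT. Intervals were therefore wider in the comparisons with UT.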

How the data were processed

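RNA-seq of 9 ovary libraries, 3 in each of the groups UT, CTX and CAU, was available as 1 table of comparisons. The log2 fold changes, p-values and q-values in it were computed by the authors between groups, per the file headers, with DESeq2 named there. The build GRCm38.p6 and the tools DESeq2 1.44.0, RSEM 1.3.1, Bowtie2 and HISAT2 are listed, without roles, per the submitters' processing notes. Sources used here give no filter, covariate or strand setting. Columns were read as the second group over the first. Cdkn1a, a p53 target, is then at 1.99 in CTX against UT. CTX against UT plus CAU against CTX came within 0.01 of CAU against UT plus a constant for all 40 members. The constant was -0.0076.

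Adjusted p means the deposited q-value. Benjamini-Hochberg values recomputed over all genes differed from it by at most 7.74e-05, and 0.05 was the threshold. The implied SE is the absolute log2 fold change over the absolute z of its p-value, as in a Wald test without shrinkage, and 95% intervals use it. Depth per library is unknown. Members and lists were chosen with earlier results of these data known. Every member is named. Of each other list, the called genes or, where none was, the 2 with the smallest SE in CTX against UT are named, except 1 gene that is not reported here. Counts of called genes were used in place of list tests. Alternatives were other thresholds, centring, scaling of z, a limit of 0.5 on SE and other arm memberships. The steps were checked on simulated data. Work was done in Python 3.11.15 with pandas 2.3.3, scipy 1.17.1 and matplotlib 3.10.9.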

Additional observations from a re-analysis of the deposited data

How the results depend on the processing

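The count of members called depended on the threshold and the scaling. In CTX against UT it was 1 as deposited, 0 at an adjusted p of 0.01, 6 at 0.10, 4 (Pdia4, Hsp90b1, Canx and Ero1b) after centring on the median of all genes, 2 with SE limited to 0.5 and 0 without the 5 members that prompted the list. In CAU against CTX it was 0, and 3 (Creld2, Dnajb9 and Manf) with z scaled to a spread of 1. In CAU against UT it was 5, then 3 at 0.01, 15 with z scaled and 0 without the 5 members. Calls over all genes changed too. In CTX against UT they went from 249 to 290 after centring on the median of all genes. With z scaled they went from 85 to 247 in CAU against CTX and from 10 to 251 in CAU against UT. Before that scaling the robust spread of z was 0.838 in CAU against CTX and 0.712 in CAU against UT. The folding median in CTX against UT was 0.24 with the translocation and ERAD members added. The median of the ATF4 and DDIT3 arm in CTX against UT turned to 0.013 with the other ATF4 targets added, which took the difference of arms to 0.36, and in CAU against CTX it turned to -0.023 as a weighted mean. The other arm values kept their sign and moved by less than the median SE of their members. For the difference of arms the limit was the larger of the 2 median SEs. In CTX against UT this was 0.27, a wide limit beside a difference of 0.68, so that difference may have moved by a large part of its size. After centring on the median of all genes, Sec61g and Xbp1 in CTX against UT turned to 0.010 and 0.003. After centring on genes of SE up to 0.25, added after the data were seen, Canx in CAU against CTX turned to 0.012, Pdia6 in CAU against UT no longer passed, and the counts of folding genes above 0 in the comparisons with UT were still 16. The cause of these changes was not tested. No paired analysis was possible because the table holds comparisons between groups and no value per library, and for the same reason no library could be left out.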

Other observations

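Chaperones outside the ER were examined from lists of the same kind. The 15 cytosolic heat shock genes had a median of 0.44 in CTX against UT, above that of the ER folding genes, with 14 above 0 and none called. At an unadjusted p of 0.05, 6 were higher (DESeq2, as deposited), where 4.42% of all genes were. Hsph1, Hsp90aa1 and Hspa8, named here after their values were seen, were at 0.87 (SE 0.30), 0.58 (SE 0.21) and 0.51 (SE 0.18) by the authors' deposited table. In CAU against CTX 12 of the 15 were below 0 (median -0.16), where 14 of the 16 ER folding genes were above 0. Hspa1a and Hspa1b, near-identical genes whose reads cannot be told apart with certainty, were at -1.36 (SE 0.69) and -1.25 (SE 0.67) there, and none of the list passed. Its most precise members in CTX against UT, Hsf1 and Dnajb4, were at 0.07 (SE 0.11) and 0.05 (SE 0.12) by the authors' deposited table. The 10 mitochondrial chaperones and proteases had medians of 0.09, -0.02 and 0.06 in CTX against UT, CAU against CTX and CAU against UT, none with an unadjusted p under 0.05, with Dnaja3 at 0.11 (SE 0.09) and Clpx at 0.03 (SE 0.09) in CTX against UT.

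The ERSE letters were also in the promoters of 27 genes that are not members, of which 17 were tested in CTX against UT and 16 in each of the other comparisons. Their medians were -0.01, -0.01 and -0.01, and none was called, with 1, 0 and 1 higher and as many lower at an unadjusted p of 0.05. Over all genes 4.42%, 3.32% and 1.2% were higher at that p. Several of the 17 were measured imprecisely in CTX against UT, with SEs of 4.08 for Esp15, Esp16 and Esp36, 0.76 for Ptgdr2 and 0.74 for Xlr3b. The more precise included Hnrnpa3 (-0.008, SE 0.07), Pan2 (-0.07, SE 0.09) and Zfp57 (0.16, SE 0.11). The medians therefore say little about the imprecise genes. The higher gene in both comparisons with UT was Alg12, a mannosyltransferase of glycan assembly in the ER, at 0.34 (SE 0.16) in CTX against UT and 0.53 (SE 0.17) in CAU against UT in the authors' deposited table. The Alg12 match is the same genomic site as that of Creld2, whose promoter it faces. This was noticed after the values were seen. Among folding members, the 8 with the element and the 6 with a promoter that lacked it had medians of 0.39 and 0.27 in CTX against UT, 0.11 and 0.14 in CAU against CTX, and 0.45 and 0.41 in CAU against UT, ranges that overlapped in all 3.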
